A study of Mus musculus with 18 samples.

Results

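The genes described here are 10 genes grouped as resting fibroblast genes, namely Pdgfra, Dcn, Lum, Tcf21, Gsn, Dpt, Pi16, Dpp4, Cd248 and Meox1. The name is that of the list, and it holds less well for Meox1, which takes part in fibroblast activation. Within each group, Meox1 and Lum were highest in the library with the most RNA of activated fibroblast genes. Cd248 was highest there in 5 of 6 groups, and Gsn was lowest there in 6 of 6. Over the 18 libraries, the mean of the 10 genes rose and fell with all 14 activated fibroblast genes (Pearson r 0.53 to 0.84). Its r with 11 other resting fibroblast genes ran from -0.27 to 0.90. The 10 genes were chosen by symbol, with earlier results of these data known, and all 10 were found among the 18414 genes of the deposited tables. Messenger RNA was sequenced from hearts of mice with a myocardial infarction, in 18 libraries that form 6 groups of 3. All mice had an infarct, and tissue was taken 1 day after the last injection. Mice of aNMP-2a_D3 received the nanomedicine aNMP-2a on day 3, and mice of PBS_D3 received PBS, a salt buffer, on that day. Tissue of both was collected on day 4. For aNMP-2a+2b_D7, aNMP-2a was given on day 3 and aNMP-2b on day 7, and for aNMP-2a+PBS_D7 aNMP-2a was followed by PBS. Tissue of both was collected on day 8. For aNMP-2a+2b+2c_D14, aNMP-2a and aNMP-2b were followed by aNMP-2c on day 14, and for aNMP-2a+2b+PBS_D14 they were followed by PBS. Tissue of both was collected on day 15. The controls of the later days therefore carried the earlier nanomedicines too, and PBS_D3 was the one group that received none. Strain, age and the type of infarct are not given in the sources used here.

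Fibroblasts of the uninjured heart carry the PDGF receptor alpha and keep a thin network of collagen and small proteoglycans around the muscle cells. After an infarct they divide, lose part of this resting profile and become matrix-secreting, contractile myofibroblasts that build the scar. Decorin, lumican and dermatopontin are secreted matrix proteins that bind collagen. PDGFRA, DPP4 and CD248 sit on the cell surface, TCF21 and MEOX1 are transcription factors, gelsolin cuts actin filaments, and PI16 marks fibroblasts around vessels.

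Of the 10 genes, 6 had an entry among the promoter sequences of RefSeq (build GRCm38.p6, 250 bases before to 50 after a start site), namely Dpt, Gsn, Dpp4, Pdgfra, Tcf21 and Pi16, and not Dcn, Lum, Cd248 or Meox1. The promoters of Dpp4, Dpt and Pi16 are printed because these genes stood apart between the groups of day 4. Dpp4 lies on the minus strand at chr2:62412182-62412481, Dpt on the plus strand at chr1:164796413-164796712 and Pi16 on the plus strand at chr17:29318632-29318931. Capitals mark E-boxes, the letters CANNTG, which are the same on both strands and are bound by proteins of the helix-loop-helix class such as TCF21.
Dpp4 promoter: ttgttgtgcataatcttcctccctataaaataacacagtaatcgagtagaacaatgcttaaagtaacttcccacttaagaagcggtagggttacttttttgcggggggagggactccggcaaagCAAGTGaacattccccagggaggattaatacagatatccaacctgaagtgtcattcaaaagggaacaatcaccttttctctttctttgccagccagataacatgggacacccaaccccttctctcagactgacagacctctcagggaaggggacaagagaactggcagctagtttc
Dpt promoter: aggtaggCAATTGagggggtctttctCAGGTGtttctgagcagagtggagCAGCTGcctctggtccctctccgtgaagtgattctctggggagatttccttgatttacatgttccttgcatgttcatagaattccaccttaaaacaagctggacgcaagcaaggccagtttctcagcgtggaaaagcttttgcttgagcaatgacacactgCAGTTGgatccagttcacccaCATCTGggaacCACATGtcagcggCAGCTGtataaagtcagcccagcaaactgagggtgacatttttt
Pi16 promoter: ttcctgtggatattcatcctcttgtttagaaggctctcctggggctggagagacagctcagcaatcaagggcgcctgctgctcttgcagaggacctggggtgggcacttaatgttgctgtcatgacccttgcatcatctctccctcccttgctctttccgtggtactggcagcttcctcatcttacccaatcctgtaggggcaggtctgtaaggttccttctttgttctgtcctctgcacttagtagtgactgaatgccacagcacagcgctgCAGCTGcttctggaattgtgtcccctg
The Dpt window held 7 E-boxes, while the Dpp4 and Pi16 windows held 1 each and the Tcf21 window held 0. Of all 32851 promoter windows of this length, 72.3% held an E-box, with a median of 1. The letters TATAAA, searched on both strands, were in the Dpp4 and Dpt windows and in 13.6% of all windows. A match describes these letters and is not a measured binding site.

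FPKM (fragments scaled by transcript length and library total) summed to between 704356 and 814452 per library, with 12181 to 12821 genes at 1 FPKM or more. The tables hold no counts, and sequencing depth is unknown. Libraries also differed in genes of neighbouring tissues. The atrial myosin gene Myl7 reached 50 FPKM in 8 of 18 libraries, with 1312, 2.56 and 2982 FPKM in aNMP-2a_D3, against 1.28, 0.67 and 0.24 FPKM in PBS_D3. The 10 mesothelial genes, which mark the outer lining of the heart, summed to 95.5 to 115.8 FPKM in aNMP-2a_D3, against 14.2 to 32.2 FPKM in PBS_D3.

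All 10 genes were present in each of the 18 libraries, and their sum was between 0.322% and 0.558% of all FPKM of its library. Gsn was the most abundant at a mean of 1326 FPKM over the 18 libraries, and Dcn followed at 986.7 FPKM. The other matrix genes Dpt and Lum averaged 314.3 and 207.5 FPKM, and Pi16 averaged 120.5 FPKM. Cd248, Tcf21, Meox1 and Pdgfra lay between 19.6 and 29.8 FPKM, and Dpp4 was far below them at 3.31 FPKM. Per transcript length, the 3 matrix genes, Gsn and Pi16 thus stood above the receptors and transcription factors, although Gsn is also made by cell types other than fibroblasts.

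Levels spread unequally over the libraries. Lum spanned 6.27-fold between its lowest library (70.3 FPKM) and its highest (440.8 FPKM), Meox1 5.80-fold and Cd248 5.40-fold. Pdgfra, the defining receptor of the lineage, spanned 2.12-fold and Dcn 2.37-fold. The group mean was highest in aNMP-2a_D3 for 8 of the 10 genes. The exceptions were Cd248, highest in aNMP-2a+PBS_D7, and Meox1, highest in aNMP-2a+2b_D7. When the 6 groups were ordered by mean, the ranges of 2 of 50 neighbouring pairs did not overlap. These were Gsn in PBS_D3 over aNMP-2a+2b_D7 and Dpp4 in aNMP-2a+2b+2c_D14 over PBS_D3. The share of such pairs over all genes was not computed, so this count only describes the 10 genes.

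**Figure D1:**
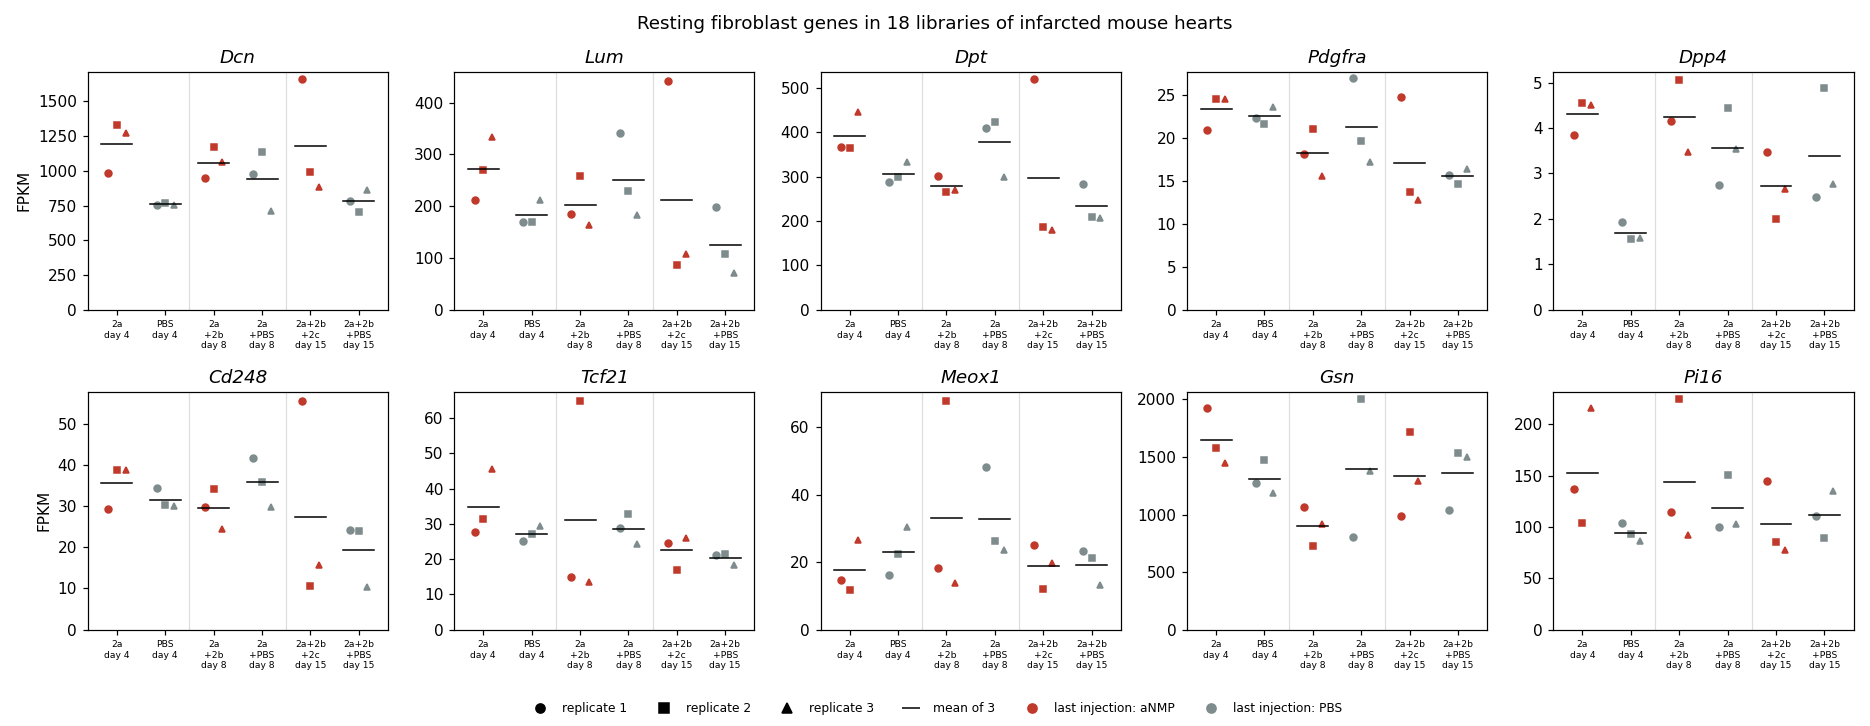
FPKM (linear axes from 0) of the 10 genes by group, with the group that received a nanomedicine last left of its PBS group, 1 symbol per replicate and a line at the mean of 3. Dcn and Dpp4 of the day 4 groups are apart, and replicate 1 of aNMP-2a+2b+2c_D14 holds the highest Dcn, Lum, Dpt and Cd248 of all 18 libraries.

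The day 4 tissue compared 1 injection of aNMP-2a with PBS, the only comparison against mice without any nanomedicine. Dpp4 and Dcn were higher after aNMP-2a, and the other 8 genes did not pass. In bulk tissue, a change in the number of cells of a type and a change in RNA per cell cannot be told apart. In limma at an adjusted p under 0.05, 2 of 10 genes rose and 0 fell, against 1.84% of all 12512 genes tested (176 higher and 54 lower). Ranges were apart for 5 of 10 genes (Dcn, Lum, Dpt, Pi16 and Dpp4), all higher after aNMP-2a, against 22.9% of all genes tested. At an unadjusted p under 0.05 there were 6 of 10, against 16.8% of all genes tested. Of the 10 log2 fold changes 9 were positive, against 7096 of all 12512 genes tested. The median log2 fold change of the 10 genes was 0.34, and that of all genes tested was 0.03.

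Among the surface proteins, Dpp4 (chr2:62330073-62412315, minus strand), a peptidase that trims chemokines and gut hormones, had 3.84, 4.55 and 4.51 FPKM in aNMP-2a_D3, against 1.93, 1.55 and 1.58 FPKM in PBS_D3. Each library after aNMP-2a was above each PBS library, with means of 4.30 ± 0.40 and 1.69 ± 0.21 FPKM (SD, n = 3 each). The log2 fold change was 1.14 (95% interval 0.86 to 1.41, adjusted p = 0.00402 in limma), a 2.2-fold rise on the scale of FPKM + 0.5. It passed in 6 of 6 fits with 1 library left out, between 1.09 and 1.21 log2 units. It did not pass with an atrial score as covariate (1.23, adjusted p = 0.0639) or in 1 fit of all 6 groups (adjusted p = 0.127). The atrial score largely followed the groups. The mean log2 of the 5 atrial genes was 7.82, 0.34 and 7.59 in aNMP-2a_D3, against -0.22, -0.06 and -0.32 in PBS_D3. The fit with this covariate therefore separates the score from the injection poorly.

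The receptor gene Pdgfra had 20.9, 24.5 and 24.5 FPKM in aNMP-2a_D3, against 22.3, 21.6 and 23.6 FPKM in PBS_D3. These ranges overlapped, and the log2 fold change was 0.05 (95% interval -0.15 to 0.25, adjusted p = 0.818). Cd248, also called endosialin and carried by fibroblasts and pericytes, likewise overlapped, with a log2 fold change of 0.16 (95% interval -0.12 to 0.44, adjusted p = 0.533).

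Among the matrix genes, Dcn (chr10:97479500-97518163, plus strand) had 986, 1328 and 1274 FPKM in aNMP-2a_D3, against 751, 771 and 753 FPKM in PBS_D3. The PBS libraries lay close together, and all 3 libraries after aNMP-2a were above them. The log2 fold change was 0.65 (95% interval 0.38 to 0.92, adjusted p = 0.0396), a 1.56-fold rise. With 1 library left out, the log2 fold change stayed between 0.56 and 0.78, but the call mostly did not hold. Dcn passed only without replicate 1 of aNMP-2a_D3 (0.78, adjusted p = 0.0112), and the call was lost in the other 5 fits. Adjusted p was 0.145, 0.122 and 0.154 without PBS_D3 replicates 1, 2 and 3, and 0.087 and 0.0841 without aNMP-2a_D3 replicates 2 and 3. The call was also lost without the filter on low values (adjusted p = 0.0666), with the atrial score as covariate (0.83, adjusted p = 0.11) and in 1 fit of all 6 groups (adjusted p = 0.497). As said for Dpp4, the atrial score largely followed the groups.

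Lum, which regulates collagen fibril width, lies 47.3 kb downstream of Dcn (chr10:97565501-97572703, plus strand). It had 212, 269 and 333 FPKM in aNMP-2a_D3, against 169, 169.6 and 211 FPKM in PBS_D3. The groups were apart by a small margin, and the log2 fold change of 0.55 (95% interval 0.16 to 0.94) did not pass (adjusted p = 0.172). Dpt, whose product binds decorin, had 367, 365 and 446 FPKM in aNMP-2a_D3, against 289, 298 and 334 FPKM in PBS_D3. It was also apart, at a log2 fold change of 0.35 (95% interval 0.11 to 0.59, adjusted p = 0.155).

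Pi16 had 136.6, 104.3 and 215.3 FPKM in aNMP-2a_D3, against 103.8, 92.9 and 86.5 FPKM in PBS_D3. The lowest value after aNMP-2a was only just above the highest PBS value, and the log2 fold change of 0.62 did not pass (adjusted p = 0.291). Without the 2 libraries of aNMP-2a_D3 that were rich in Myl7, 1 library remained against 3 of PBS_D3, and it is assumed to vary like the others. There the log2 fold change was 0.15 for Pi16, 0.81 for Dcn and 1.21 for Dpp4. Gsn had 1926, 1576 and 1448 FPKM in aNMP-2a_D3, against 1274, 1474 and 1188 FPKM in PBS_D3. Its groups overlapped by 1 library each, at a log2 fold change of 0.33 (adjusted p = 0.256).

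The transcription factor genes did not pass and had opposite signs. Tcf21, which fibroblasts need to form from the epicardium in mice, had 27.8, 31.3 and 45.6 FPKM in aNMP-2a_D3, against 25.3, 27.1 and 29.3 FPKM in PBS_D3 (log2 fold change 0.32, adjusted p = 0.391). Meox1, which takes part in the switch to myofibroblasts in the stressed mouse heart, had 14.7, 11.7 and 26.5 FPKM in aNMP-2a_D3, against 16.3, 22.4 and 30.3 FPKM in PBS_D3. Its log2 fold change was -0.42 with a wide interval (-1.31 to 0.48, adjusted p = 0.599). With 1 library left out, Tcf21 was lowest at 0.12 without replicate 3 of aNMP-2a_D3. Meox1 ran from -0.75 without replicate 3 of aNMP-2a_D3 to -0.17 without its replicate 2.

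**Figure D2:**
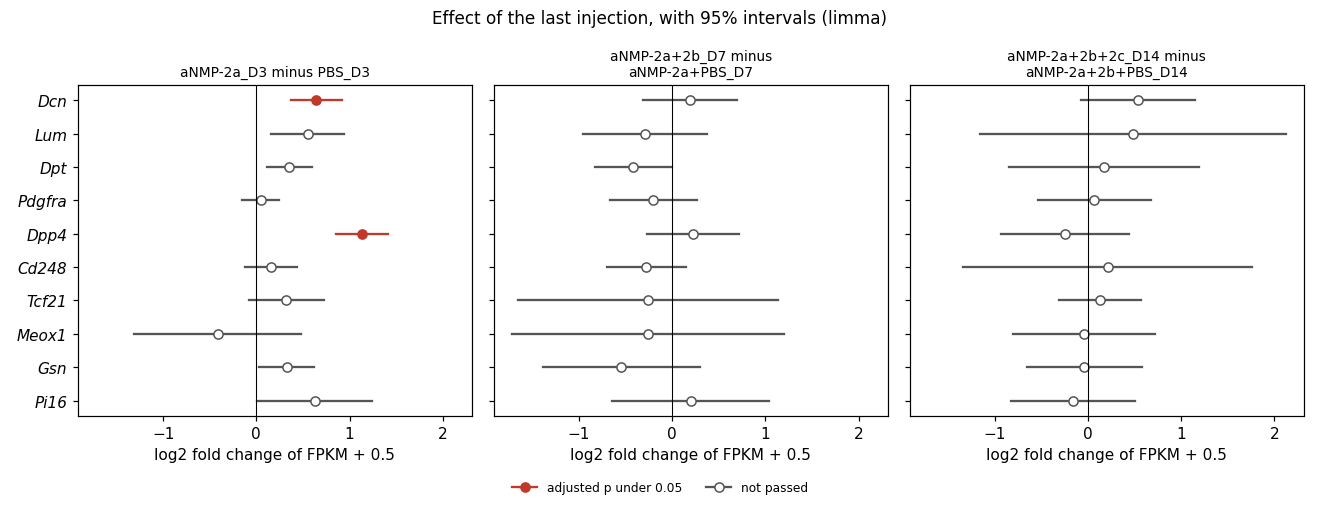
Log2 fold change of FPKM + 0.5 for each gene in the 3 comparisons, with 95% intervals from limma; filled red points have an adjusted p under 0.05. Dcn and Dpp4 of the day 4 tissue are the filled points, and intervals are wider on days 8 and 15 for every gene except Meox1, whose interval is narrowest on day 15.

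Further genes of fibroblasts were compared as lists. Of 11 other resting fibroblast genes, 3 rose on day 4 and 0 fell, with a median log2 fold change of 0.35. The ferritin receptor gene Scara5 had 26.4, 30.2 and 27.0 FPKM in aNMP-2a_D3, against 18.3, 18.3 and 17.6 FPKM in PBS_D3 (log2 fold change 0.61, adjusted p = 0.00996). The protease gene Htra3 averaged 198.2 FPKM in aNMP-2a_D3 and 120.1 FPKM in PBS_D3 (0.72, adjusted p = 0.0175). The transporter gene Abca8a averaged 34.7 FPKM in aNMP-2a_D3 and 22.4 FPKM in PBS_D3 (0.62, adjusted p = 0.023). The groups of these 3 genes did not overlap.

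Of 14 genes of activated fibroblasts, 0 rose and 1 fell, with a median log2 fold change of -0.46. The gene that fell was Acta2, the smooth muscle actin of myofibroblasts and of vessel walls. It had 123, 110.3 and 129 FPKM in aNMP-2a_D3, against 263, 250.3 and 250.1 FPKM in PBS_D3 (log2 fold change -1.07, adjusted p = 0.00104). Mural genes of vessel walls were measured beside it, and 0 of 6 passed, with a median of -0.22. All 6 log2 fold changes were negative, against 5416 of all 12512 genes tested. In limma, 2 of 6 had an unadjusted p under 0.05, against 16.8% of all genes tested. Their summed FPKM ran from 270.0 to 298.0 in aNMP-2a_D3 and from 303.8 to 371.2 in PBS_D3, without overlap. Whether mural cells had a part in Acta2 was not tested.

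Of 11 further small leucine-rich proteoglycans, the family of decorin and lumican, 7 could be tested and 1 rose. This was Podn, podocan, with 43.4, 31.1 and 48.3 FPKM in aNMP-2a_D3, against 14.8, 13.3 and 14.8 FPKM in PBS_D3. Its groups were far apart, with a log2 fold change of 1.46 (adjusted p = 0.00459). Biglycan, the most abundant of these 11, did not pass (0.20, adjusted p = 0.754). None of the 5 genes of PDGF ligands and their beta receptor passed in limma, with 1 at an unadjusted p under 0.05 and a median of -0.11, and Pdgfrb was at -0.19 (adjusted p = 0.313). Likewise 0 of 4 tested relatives of gelsolin passed, with 0 at an unadjusted p under 0.05, and Capg was at 0.02 (adjusted p = 0.932).

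Genes of the heart's outer lining moved with this comparison. Of 9 tested mesothelial genes 5 rose, with a median log2 fold change of 2.36, and their sums in the groups did not overlap. No mesothelial gene was at 0 in any library. Upk3b, a defining member, had 24.4, 17.4 and 19.0 FPKM in aNMP-2a_D3, against 3.61, 1.36 and 1.02 FPKM in PBS_D3. Their part in the rise of Dcn and Dpp4 was not tested. The 5 macrophage genes summed to 705.5 to 845.5 FPKM in aNMP-2a_D3 and to 557.1 to 722.1 FPKM in PBS_D3, and 0 of 5 passed. All 5 were positive, with a median log2 fold change of 0.25, and 2 had an unadjusted p under 0.05 in limma.

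The day 8 tissue asked what aNMP-2b added when given after aNMP-2a. None of the 10 genes passed in limma, against 0.00787% of all genes tested (1 gene). At an unadjusted p under 0.05 there was 1 of 10, near the 7.78% of all genes tested. The ranges overlapped for all 10 genes, against 12.3% of all genes tested with ranges apart. Of the 10 log2 fold changes 7 were negative, with a median of -0.26 against -0.004 for all genes tested. The median was 0.02 without replicate 3 of aNMP-2a+2b_D7. Genes of neighbouring tissues moved with this comparison. The 6 fat cell genes summed to 758.1 to 1345 FPKM in aNMP-2a+2b_D7, against 94.9 to 270.3 FPKM in aNMP-2a+PBS_D7, and the 10 mesothelial genes to 215.6 to 235.6 FPKM in aNMP-2a+2b_D7, against 53.3 to 149.8 FPKM in aNMP-2a+PBS_D7. Of the tested genes of these lists, 5 of 5 and 7 of 9 had an unadjusted p under 0.05 and none passed, and their part in the values of the 10 genes was not tested.

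Dpt had the smallest p, with 302.6, 265.5 and 269.8 FPKM in aNMP-2a+2b_D7, against 410.0, 422.8 and 299.1 FPKM in aNMP-2a+PBS_D7. Replicate 3 of aNMP-2a+PBS_D7 fell just inside the other group, and the log2 fold change was -0.42 (95% interval -0.83 to -0.01, adjusted p = 0.64). Gsn had 1070.0, 727 and 916 FPKM in aNMP-2a+2b_D7, against 803, 2001 and 1381 FPKM in aNMP-2a+PBS_D7. The groups overlapped, with replicate 2 of aNMP-2a+2b_D7 below every control library, and the log2 fold change of -0.55 did not pass (adjusted p = 0.771).

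The other matrix genes went in opposite directions without passing. Dcn had 946, 1174 and 1061 FPKM in aNMP-2a+2b_D7, against 978, 1137 and 711 FPKM in aNMP-2a+PBS_D7 (log2 fold change 0.19, 95% interval -0.31 to 0.70, adjusted p = 0.878). Lum had 185, 258 and 164 FPKM in aNMP-2a+2b_D7, against 341, 229 and 184 FPKM in aNMP-2a+PBS_D7 (log2 fold change -0.29, adjusted p = 0.853). Of the surface genes, Dpp4 had 4.16, 5.06 and 3.48 FPKM in aNMP-2a+2b_D7, against 2.74, 4.43 and 3.54 FPKM in aNMP-2a+PBS_D7. All 6 of these values were above the 3 values of PBS_D3 given above for day 4. That group differs in tissue day, table and earlier nanomedicine, and the share over all genes was not computed. The Dpp4 log2 fold change on day 8 was 0.23 (95% interval -0.27 to 0.72, adjusted p = 0.848). Pdgfra (-0.20, adjusted p = 0.858) and Cd248 (-0.28, adjusted p = 0.77) did not pass either.

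The values of the transcription factors and Pi16 depended on single libraries. Tcf21 had 14.9, 64.8 and 13.5 FPKM in aNMP-2a+2b_D7, against 28.9, 32.7 and 24.2 FPKM in aNMP-2a+PBS_D7. Meox1 had 18.3, 67.6 and 13.7 FPKM in aNMP-2a+2b_D7, against 48.2, 26.2 and 23.7 FPKM in aNMP-2a+PBS_D7. Pi16 had 114.4, 224.0 and 92.4 FPKM in aNMP-2a+2b_D7, against 100.4, 151.0 and 103.4 FPKM in aNMP-2a+PBS_D7. Replicate 2 of aNMP-2a+2b_D7 was the highest of the 18 libraries for these 3 genes. Without it, the log2 fold change was -0.98 for Tcf21 in place of -0.26, -0.95 for Meox1 in place of -0.26, and -0.18 for Pi16 in place of 0.20. Other libraries turned signs too. Tcf21 was 0.07 without replicate 1 and 0.14 without replicate 3 of aNMP-2a+2b_D7, and Meox1 was 0.18 without replicate 3 of aNMP-2a+2b_D7 and 0.05 without replicate 1 of aNMP-2a+PBS_D7.

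In the lists, none of the 11 other resting fibroblast genes passed in limma on day 8 (1 at an unadjusted p under 0.05, median 0.07). Ly6a, the stem cell antigen Sca-1 and the most abundant of them, averaged 1110.0 FPKM in aNMP-2a+2b_D7 and 347.2 FPKM in aNMP-2a+PBS_D7, with ranges apart (log2 fold change 1.42, adjusted p = 0.578). Of 14 activated fibroblast genes none passed either (1 at an unadjusted p under 0.05, median 0.17), and Col3a1 was at 0.09 (adjusted p = 0.98). Of 7 tested proteoglycans, 5 PDGF genes and 4 gelsolin relatives none passed, and none had an unadjusted p under 0.05.

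The day 15 tissue asked what aNMP-2c added after both earlier agents. None of the 10 genes passed in limma, against 0% of all 12440 genes tested. At an unadjusted p under 0.05 there were 0 of 10, against 8.55% of all genes tested. The ranges were apart for 1 gene, Dcn, against 15.4% of all genes tested. Of the 10 log2 fold changes 6 were positive, with a median of 0.10 against 0.02 for all genes tested. Without replicate 1 of aNMP-2a+2b+2c_D14, 7 of 10 were negative and the median was -0.26.

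Dcn had 1665, 988 and 885 FPKM in aNMP-2a+2b+2c_D14, against 785, 703 and 865 FPKM in aNMP-2a+2b+PBS_D14. Every library after aNMP-2c was above those of the control, by a small margin in replicate 3, and the log2 fold change was 0.54 (95% interval -0.08 to 1.15, adjusted p = 0.64). It was 0.26 without replicate 1 of aNMP-2a+2b+2c_D14 (adjusted p = 0.394).

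The same replicate stood out in the other matrix genes and in Cd248. Lum had 441, 86.1 and 108 FPKM in aNMP-2a+2b+2c_D14, against 198, 108 and 70.3 FPKM in aNMP-2a+2b+PBS_D14. Dpt had 519.6, 187.6 and 180.8 FPKM in aNMP-2a+2b+2c_D14, against 284.5, 208.9 and 207.1 FPKM in aNMP-2a+2b+PBS_D14. Cd248 had 55.4, 10.6 and 15.8 FPKM in aNMP-2a+2b+2c_D14, against 24.2, 23.9 and 10.3 FPKM in aNMP-2a+2b+PBS_D14. In these 3 genes replicate 1 was the highest of all 6 libraries, and replicates 2 and 3 lay within or below the control range. The log2 fold changes of Lum, Cd248 and Dpt were 0.48, 0.21 and 0.17, and without that replicate they were -0.25, -0.47 and -0.33.

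Pdgfra was also highest in replicate 1, with 24.8, 13.6 and 12.7 FPKM in aNMP-2a+2b+2c_D14, against 15.6, 14.6 and 16.4 FPKM in aNMP-2a+2b+PBS_D14. Its log2 fold change was 0.07 with all libraries and -0.23 without replicate 1. Gsn went the other way in that library, with 989, 1718 and 1295 FPKM in aNMP-2a+2b+2c_D14, against 1039, 1533 and 1503 FPKM in aNMP-2a+2b+PBS_D14 (log2 fold change -0.04, adjusted p = 0.988).

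Dpp4 had 3.48, 2.00 and 2.66 FPKM in aNMP-2a+2b+2c_D14, against 2.48, 4.88 and 2.77 FPKM in aNMP-2a+2b+PBS_D14. These overlapped, with a log2 fold change of -0.25 (95% interval -0.93 to 0.44, adjusted p = 0.877). Tcf21 had 24.7, 16.9 and 26.0 FPKM in aNMP-2a+2b+2c_D14, against 21.1, 21.5 and 18.3 FPKM in aNMP-2a+2b+PBS_D14 (0.13, adjusted p = 0.909). Meox1 (-0.04, adjusted p = 0.991) and Pi16 (-0.16, adjusted p = 0.927) overlapped as well.

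Replicate 1 of aNMP-2a+2b+2c_D14 also stood apart in the marker lists. Its 14 activated fibroblast genes summed to 4384 FPKM, against 230.5 and 369.2 FPKM in replicates 2 and 3 and 449.7 to 1656 FPKM in aNMP-2a+2b+PBS_D14. Its 10 mesothelial genes summed to 286.6 FPKM, against 15.0 and 10.9 FPKM in replicates 2 and 3, and its 6 fat cell genes to 807.5 FPKM, against 44.5 and 3.97 FPKM. Its 5 heart muscle genes had the lowest sum of that group, at 28410.0 FPKM. Of the fibroblast lists on day 15, 0 of 11 other resting and 0 of 14 activated genes passed in limma (1 and 0 at an unadjusted p under 0.05), with medians of 0.18 and 0.03. None of 7 tested proteoglycans, 5 PDGF genes and 4 gelsolin relatives passed (0, 0 and 2 at an unadjusted p under 0.05). Their medians were 0.35, 0.13 and -0.025, and all 7 proteoglycans were positive. The part of the tissues marked by the lists in the values of the 10 genes was not tested.

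**Figure D3:**
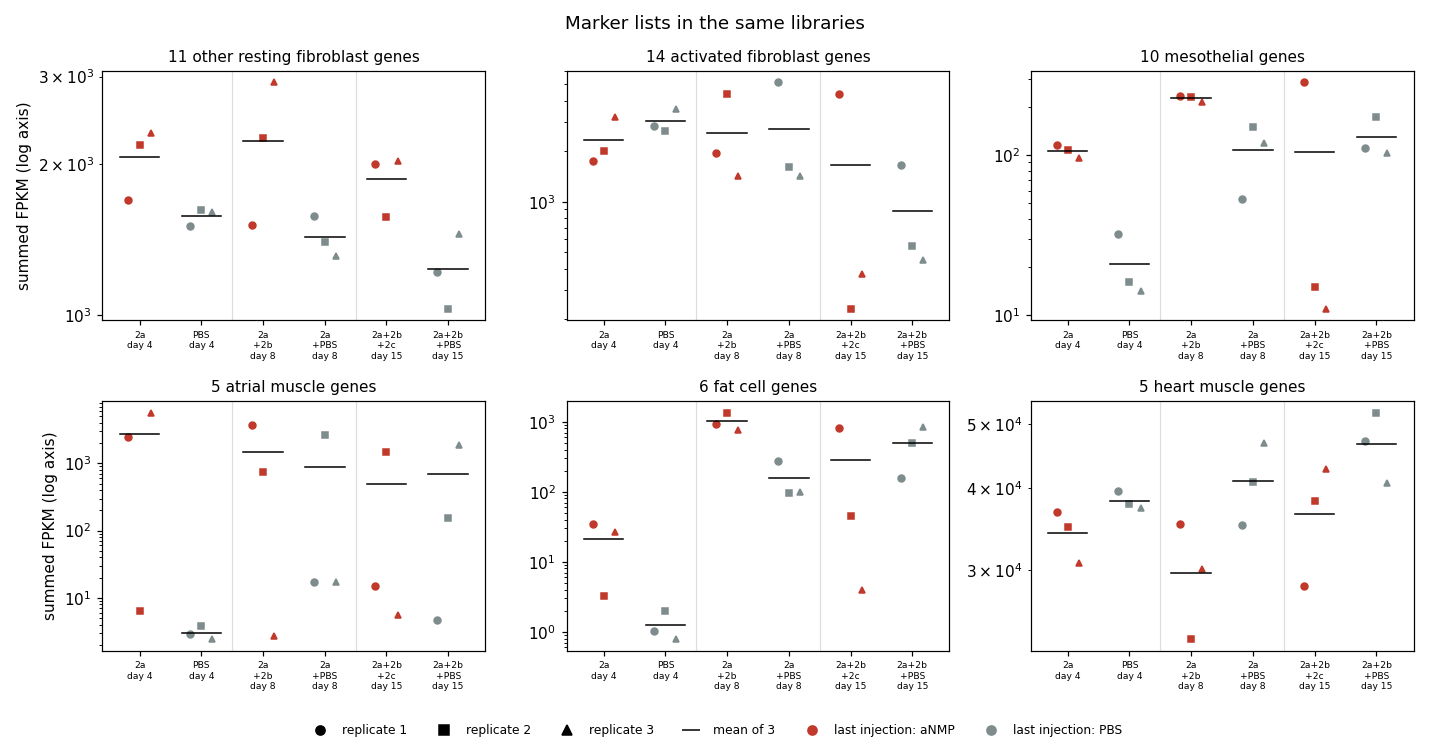
Summed FPKM (log axis) of 6 marker lists by group, with groups that received a nanomedicine last left of their PBS group, 1 symbol per replicate and a line at the mean of 3. Replicate 1 of aNMP-2a+2b+2c_D14 is the highest of its group in activated fibroblast, mesothelial and fat cell genes and the lowest in heart muscle genes.

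Later tissue was also compared with earlier tissue of mice that had received the same nanomedicines, the later group having had a PBS injection in addition. For aNMP-2a+PBS_D7 (day 8) minus aNMP-2a_D3 (day 4), 0 of 10 genes passed in limma, against 0.122% of all 13116 genes tested. At an unadjusted p under 0.05 there were 0 of 10, against 7.94% of all genes tested. Ranges were apart for 0 of 10 genes, against 14.2% of all genes tested, and the median log2 fold change was -0.21. Meox1 had the largest difference, 0.89 (95% interval -0.19 to 1.97, adjusted p = 0.728), with 48.2, 26.2 and 23.7 FPKM in aNMP-2a+PBS_D7, against 14.7, 11.7 and 26.5 FPKM in aNMP-2a_D3.

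For aNMP-2a+2b+PBS_D14 (day 15) minus aNMP-2a+2b_D7 (day 8), 9 of 10 differences were negative, with a median of -0.30 against -0.07 for all genes tested. None passed in limma, against 0.0152% of all genes tested, and 0 of 10 had an unadjusted p under 0.05, against 20.7% of all genes tested. Dcn was lower in every day 15 library, with 785, 703 and 865 FPKM in aNMP-2a+2b+PBS_D14, against 946, 1174 and 1061 FPKM in aNMP-2a+2b_D7 (-0.43, 95% interval -0.89 to 0.03, adjusted p = 0.265). Cd248 was also apart and lower (-0.67, adjusted p = 0.389). These were 2 of 10 genes with ranges apart, against 25.9% of all genes tested. Gsn was the gene with a positive difference, 0.58 (adjusted p = 0.261). Of the activated fibroblast genes, 0 of 14 passed (2 at an unadjusted p under 0.05) with a median of -1.65, and the macrophage median was -1.05. Without the 8 libraries rich in Myl7, which leave 1 library in each of these groups, the median of the 10 genes was 0.13.

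Whether the effect of the last injection differed between days was tested in 1 fit of the 6 groups. None of the 10 genes passed in limma in any of the 3 differences, and 0% of all 13116 genes tested passed. At an unadjusted p under 0.05 there were 2 of 10 genes for day 8 minus day 4 (4.80% of all genes tested), 1 for day 15 minus day 4 (4.89%) and 0 for day 15 minus day 8 (2.63%). Of the 10 genes, Dpp4 had the largest difference between the effects of day 15 and day 4, at -1.38 log2 units (95% interval -2.07 to -0.70, adjusted p = 0.944). Its p was the sixth smallest of all genes tested. Without replicate 1 of aNMP-2a+2b+2c_D14 it was -1.55 and passed (adjusted p = 0.0474), where 82 of all genes passed. Between day 8 and day 4, the difference was -0.91 for Dpp4 (95% interval -1.59 to -0.23, adjusted p = 0.98) and -0.87 for Gsn (adjusted p = 0.98). The low Dpp4 level of PBS_D3 entered both differences with day 4.

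The 10 genes did not move as a single block across libraries. Within groups, the library with the highest sum of the 14 activated fibroblast genes was also the highest of its 3 in Lum and in Meox1 in 6 of 6 groups, and in Cd248 in 5 of 6. The same library had the lowest Gsn of its group in 6 of 6 groups, and the lowest heart muscle sum in 5 of 6. Pdgfra and Dpt were highest there in 4 of 6 groups, Tcf21 and Pi16 in 3, and Dcn and Dpp4 in 2. These libraries were replicate 3 of aNMP-2a_D3 and of PBS_D3, replicate 2 of aNMP-2a+2b_D7, and replicate 1 of aNMP-2a+PBS_D7, of aNMP-2a+2b+2c_D14 and of aNMP-2a+2b+PBS_D14. This pattern was noticed in the values and was not tested.

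Pairs of the 10 genes were compared over the same libraries. With group means removed, the highest Pearson r over the 18 libraries was 0.93, between Lum and Cd248. Next came 0.89 between Lum and Dpt and 0.87 between Tcf21 and Meox1. The lowest were -0.70 between Lum and Gsn and -0.66 between Pdgfra and Gsn. Each negative pair included Gsn, and pairs without Gsn ran from 0.13 for Tcf21 and Dpt to 0.93. Libraries that stood out above, replicate 2 of aNMP-2a+2b_D7 and replicate 1 of aNMP-2a+2b+2c_D14, enter these values. The libraries share the FPKM scaling, so these values describe the libraries and have no test. Over all libraries, the mean of the 10 centred genes ranged from -0.55 in replicate 2 of aNMP-2a+2b+2c_D14 to 0.53 in replicate 3 of aNMP-2a_D3 (log2 units).

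**Figure D4:**
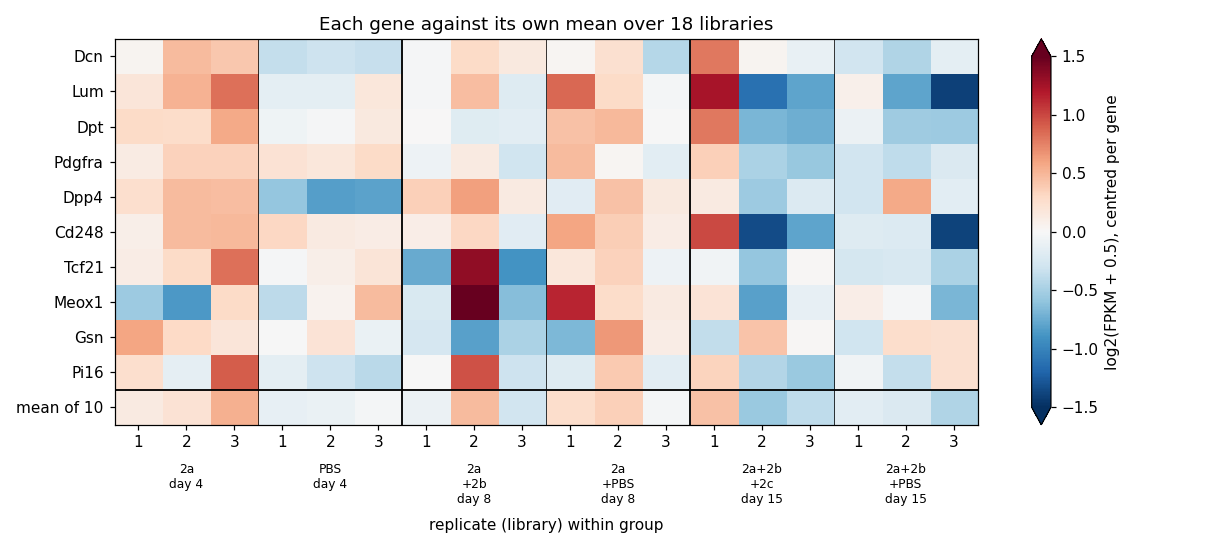
Log2(FPKM + 0.5) of each gene minus its own mean over the 18 libraries, with the mean of the 10 genes in the bottom row; columns are replicates within groups, and the colours end at 1.5 log2 units either way. Gsn is low in replicate 2 of aNMP-2a+2b_D7 and replicate 1 of aNMP-2a+PBS_D7, where Meox1 is high.

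Of 13106 other genes, the one whose log2 FPKM followed the mean of the 10 most closely was Sulf2, with Pearson r = 0.939 and Spearman rho = 0.959 over the 18 libraries. AA414768 (0.935), Pcdh18 (0.921), Zc3hav1l (0.921) and Pafah1b2 (0.921) came next. Among the other resting fibroblast genes the r ran from -0.27 for Ly6a to 0.90 for Cd34, with 0.06 for Scara5 and 0.27 for Abca8a, which rose on day 4. Among activated fibroblast genes all 14 were positive, from 0.53 for Comp to 0.84 for Postn. Genes of other tissues varied. The r ran from 0.27 for Muc16 to 0.85 for Tbx18 among 10 mesothelial genes, from 0.13 for Myl7 to 0.43 for Bmp10 among 5 atrial genes and from 0.02 for Retn to 0.13 for Plin1 among 5 fat cell genes. It ran from 0.19 for Adgre1 to 0.73 for Csf1r among 5 macrophage genes, and from -0.73 for Myl2 to 0.21 for Actc1 among 5 heart muscle genes.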

How the data were processed

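Libraries of 18 samples of infarcted mouse hearts were made from messenger RNA captured by its poly(A) tail. The authors deposited 1 FPKM value per gene and library in 3 tables, 1 for each tissue day. No header names the unit, which was read from the values: plain sums varied by 3.81% (coefficient of variation) and length-weighted sums by 2.11% between libraries. HISAT2 2.1.0, Bowtie2 2.2.5, RSEM 1.2.8 and GRCm38.p6 were used, per the submitters' processing notes, without the role of each tool. Strand and annotation are not given in the sources used here, and depth is unknown. Of 18414 gene identifiers, 18292 matched RefSeq.

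Sample titles gave the groups. A comparison was fitted on its own 6 libraries, keeping genes that reached 1 FPKM in 3 or more of them, on log2(FPKM + 0.5), a scale that understates changes of low genes such as Dpp4. limma 3.58.1 (R 4.3.3) was used (trended, robust empirical Bayes, two-sided), with Benjamini-Hochberg adjustment over all genes tested and calls under 0.05. Contrasts between days used 1 fit of the 18 libraries, across tables that were not scaled to each other. The labels do not say that replicates are separate animals, so the p-values reflect how these samples vary, which may be technical. With 3 libraries a group, an exact permutation p is at least 0.1, and none was computed. Named genes are the 10 genes, list genes that passed or else the most abundant tested one, the 5 genes most like the mean of the 10, and markers of neighbouring tissue. Other genes given with values (among the correlations) were chosen as ends of a range or after their values were seen. The 10 genes, lists and alternatives were chosen with earlier results of these data known. Alternatives were other pseudocounts, no filter, upper-quartile scaling, a replicate block, an atrial score as covariate, libraries with at least 50 FPKM of Myl7 left out, 1 fit of all groups, and each library left out. Figures used matplotlib 3.10.9 in Python 3.11.15.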

Additional observations from a re-analysis of the deposited data

How the results depend on the processing

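Of 1230 values of the 10 genes recomputed under the alternatives, 78 changed sign, and 0 of these had passed before or after. The 2 genes that passed on day 4 were 1 without the filter on low values and 0 with the atrial score or in 1 fit of all 6 groups, and 1 to 2 with 1 library left out. Over all genes, the 230 calls of day 4 were 22 with the atrial score, 3 in 1 fit of all groups and 71 to 237 with 1 library left out. On day 4 the atrial score largely followed the groups. The 1 call of day 8 was 0 without the libraries rich in Myl7, 17 in 1 fit of all groups and 0 to 277 with 1 library left out (277 without replicate 1 of aNMP-2a+PBS_D7). On day 15 there were 0 to 0 calls with 1 library left out. The 16 calls of aNMP-2a+PBS_D7 minus aNMP-2a_D3 were 8 without the filter, 53 with the atrial score, 0 without the libraries rich in Myl7 and 0 to 21 with 1 library left out. The 2 calls of aNMP-2a+2b+PBS_D14 minus aNMP-2a+2b_D7 were 0 with a pseudocount of 0.1, without the filter, with upper-quartile scaling and without the libraries rich in Myl7, 225 with the atrial score, and 0 to 8 with 1 library left out. For the difference between day 15 and day 8 there was 1 call without the filter, and 0 to 77 with 1 library left out. For day 15 minus day 4 there were 0 to 82 over all genes and 0 to 1 among the 10, each highest without replicate 1 of aNMP-2a+2b+2c_D14, as was the 77. For day 8 minus day 4 there were 0 to 0. The cause of these changes was not tested. A fit with an arm of 1 library assumes that it varies like the others.

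It is not known whether replicate numbers pair the libraries. Correlations of same-numbered deviations lay between -0.20 and 0.37, and the best match had the same number for some libraries and another for others. With the replicate block, day 4 had 231 calls over all genes and Lum passed too (0.55, adjusted p = 0.0493), and the day 8 call was lost (0). The block could not be fitted for the contrasts between tissue days, because each number lies within 1 day. Depth is unknown, so counting error could not be separated from the spread between libraries, which matters most for Dpp4 at a few FPKM.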
